A study of Apis mellifera with 6 samples.

Results

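The ovary of the worker honeybee changes with its social setting. A small group of genes had their highest level in the active ovaries of queen-less workers. These genes were chosen on the deposited RPKM (mapped reads of a gene, corrected for its length and for sequencing depth). An entry was kept where the smaller of the 2 queen-less worker values was at least 3 RPKM and at least 1.5 times the largest of the 4 queen and queen-right worker values. Symbols starting with Tpn, Hex, Mrjp, CYP, Obp or CSP were left out of the choice, but none of them met the limits. In all, 18 of 11169 gene entries (0.161%) were members. Because the choice used the queen-less values against both other groups, those differences are described here without a test.

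RNA-seq was made from dissected ovaries of Apis mellifera kept in Dunedin, New Zealand, with 2 libraries per ovary type, each from 1 pool of ovaries. Queen-less workers (ovary score 3, active ovaries) came from brood frames moved to a nucleus box with queen cells destroyed, and were dissected 2 to 4 weeks later. Queens were egg layers of about 12 months heading a colony, and queen-right workers (ovary score 0) came from a hive headed by a laying queen. Queen-less and queen-right workers differ in hive type and presence of a queen as well as in ovary score, and queens differ from both in caste. All bees were lightly chilled before dissection, and no source used here says whether the pools of a group came from separate colonies, so the spread between pools may be partly technical.

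In most workers of a queen-right colony the pheromone of the queen and signals from brood hold the ovary inactive, with germ cells that do not develop to eggs. After loss of the queen some workers activate the ovary, which then forms oocytes with nurse cells and follicle cells much as the ovary of a queen does. The ovary is also sheathed by muscle and lies among fat body, tracheae and, in the sting-bearing females, near the venom apparatus, so a dissection can carry RNA of these tissues. In bulk tissue, more cells of a type and more RNA per cell cannot be told apart.

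The steps between low RPKM values give the number of reads behind them, since 1 read is worth a fixed amount that depends on the length of the gene and on the reads of the library. In 24 of 1085 entries with a clear step, the step multiplied by the span of the gene fell in the lowest group of values, no more than 2% wide, taken to be that of gene models without introns, for which the span is the counted length. This value implies about 5280000 to 5580000 counted reads per library, the shallowest library having 94.7% of the reads of the deepest. Pools of a group correlated across entries with r = 0.983 in queen-less workers, 0.988 in queens and 0.976 in queen-right workers on the log2 scale. One library stood apart in genes of the venom gland. The melittin gene Melt had 59.4 and 2938 RPKM in queen-less workers, 1.99 and 1.5 RPKM in queens, and 254 and 552 RPKM in queen-right workers. The second queen-less pool was thus far above the first in this transcript. Muscle genes went another way, with a summed level over 9 genes of 216 and 189 RPKM in queen-less workers, 57.2 and 35.8 RPKM in queens, and 2813 and 3470 RPKM in queen-right workers. Germline genes were present in every library, for example vas, an RNA helicase of germ cells, at 193 and 201 RPKM in queen-less workers, 190 and 138 RPKM in queens, and 18.6 and 16.7 RPKM in queen-right workers. Another germline gene, orb, went the other way, with 623 and 523 RPKM in queen-less workers, 548 and 529 RPKM in queens, and 963 and 1058 RPKM in queen-right workers.

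Most members were of low to middle level, and 6 of the 18 lay above the median of all entries. Their mean in queen-less workers lay between 3.40 and 25.8 RPKM with a median of 6.39 RPKM, against a median of 9.08 RPKM over all entries. Of the 18 members, 13 had a queen-less mean below 10 RPKM. The mean of the members was 1.72 to 15.2 times that of queens (median 2.24) and 1.95 to 7.49 times that of queen-right workers (median 3.43). Since these ratios were used in the choice, they describe it and support nothing further.

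**Figure D1:**
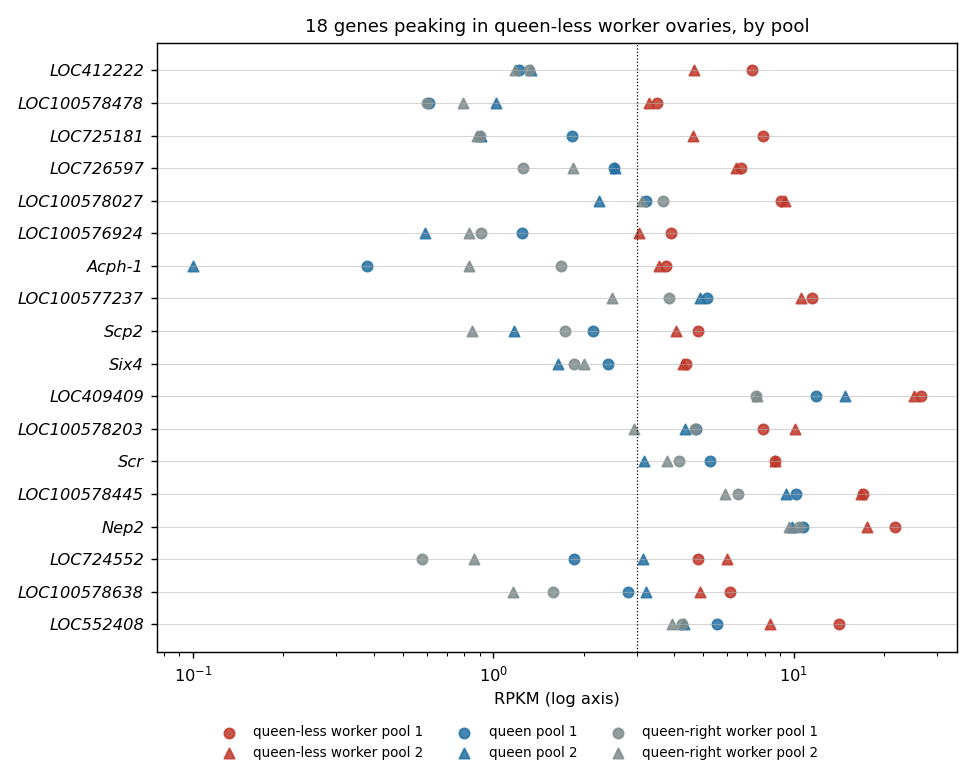
RPKM of the 18 members in each of the 6 pools on a log axis, with circles for pool 1 and triangles for pool 2, red for queen-less workers, blue for queens and grey for queen-right workers, and a dotted line at 3 RPKM. In every row both red points lie right of the other 4, by construction of the choice, and members are ordered by the ratio of the smaller queen-less value to the largest other value, from 3.504 for LOC412222 to 1.502 for LOC552408.

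Such a peak was rare among the entries. Both queen-less pools lay above the other 4 pools in 591 of 11169 entries (5.29%), and in 516 of these with at least 3 RPKM, but the 1.5-fold limit left 18. By the same rule 19 entries peaked in queens and 2460 in queen-right workers. These counts use unscaled RPKM, which was higher as a whole in queen-right workers, with library medians of 12.6 and 12.3 RPKM. The medians were 9.23 and 8.93 RPKM in queen-less workers and 8.16 and 8.17 RPKM in queens. With the rule turned round, 9 entries were lowest in queen-less workers. The limits against each of the other groups were met by different numbers of genes. Against queen-right workers alone 1448 entries met the limits, and 1.24% of them also met those against queens. Against queens alone 271 entries met the limits, and 6.64% of them also met those against queen-right workers.

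**Figure D2:**
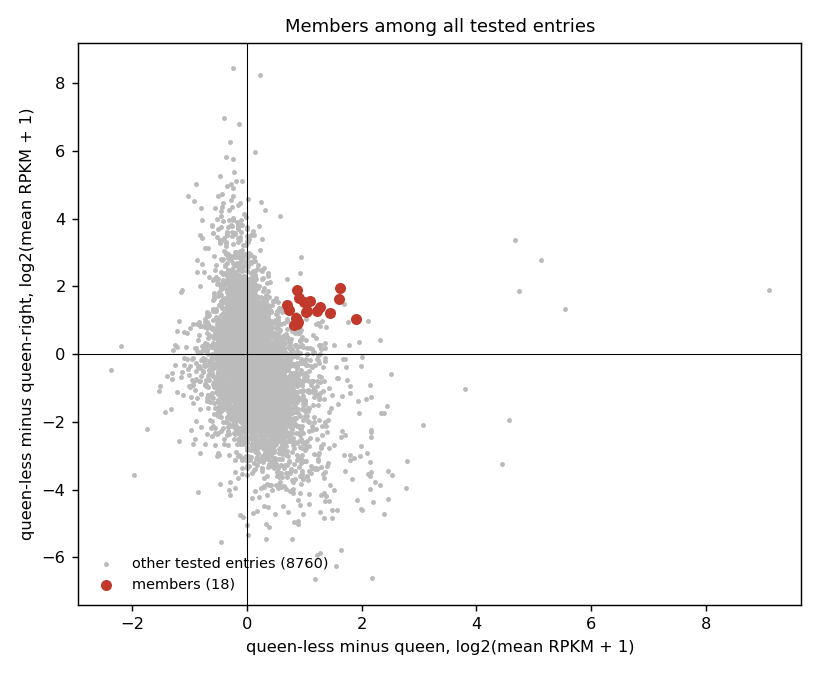
Difference of group means on the log2(mean RPKM + 1) scale, queen-less minus queen on the x axis and queen-less minus queen-right on the y axis, for the 18 members (red) and the other tested entries (grey). Most entries lie along the y axis, near 0 on the x axis, and the members lie in the upper right quadrant, where both differences are above 0.

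The limits cut through a continuous range. Just inside the fold limit were LOC552408 (ratio 1.502), LOC100578638 (1.51) and LOC724552 (1.53), and just outside were LOC100577965 (1.45), LOC100578969 (1.45) and LOC409306 (1.43). LOC100577965, outside the limit, had 21.0 and 23.2 RPKM in queen-less workers, 14.4 and 9.36 RPKM in queens, and 10.1 and 8.42 RPKM in queen-right workers. Queens and queen-right workers overlapped in this gene. Nearest to the limit of 3 RPKM were, inside, LOC100576924 with a smaller queen-less value of 3.06 RPKM, LOC100578478 with 3.29 RPKM and Acph-1 with 3.56 RPKM. Outside it were LOC100577959 with 2.04 RPKM, LOC551640 with 1.94 RPKM and LOC727145 with 1.77 RPKM.

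Of the members, 5 carry a gene name and 13 a LOC number, a share of 72.2% against 76.9% of all entries. The reference table for the assembly Amel_HAv3.1 lists 13 of the 18 gene IDs (72.2%, against 80.2% of all entries). It lists LOC numbers in place of the names Scr, Six4, Nep2 and Scp2, which are the names of the deposited table. No function is given for the LOC members, and none is assigned to them here.

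Among the named members are 2 genes of homeodomain transcription factors. Scr (Sex combs reduced) is a Hox gene that sets the identity of segments of the posterior head and anterior thorax in insects. It had 8.65 and 8.68 RPKM in queen-less workers, 5.24 and 3.17 RPKM in queens, and 4.14 and 3.79 RPKM in queen-right workers. The queen-less pools were nearly equal, while the queen pools spread over the range of the queen-right pools. Scr lies on scaffold NW_003377938 from 321055 to 350919 in the deposited table, which names scaffolds but no assembly version. Of 7 Hox genes matched by symbol after the members were known, Scr alone had its highest values in both queen-less pools. Antp, which acts in the thorax, had 17.7 and 21.3 RPKM in queen-less workers, 9.11 and 9.80 RPKM in queens, and 25.0 and 19.8 RPKM in queen-right workers. Both worker groups were above the queens in Antp, and the queen-less pools lay within or below the queen-right range. Ubx and Abd-A, which pattern the abdomen, were highest in queen-right workers, with means of 37.2 and 11.6 RPKM there against 3.33 and 1.53 RPKM in queen-less workers and 2.73 and 0.47 RPKM in queens.

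Six4 is a homeodomain factor related to sine oculis, and in Drosophila it is needed for muscle and for the somatic cells of the gonad. Its level was 4.38 and 4.27 RPKM in queen-less workers, 2.4 and 1.64 RPKM in queens, and 1.86 and 2.00 RPKM in queen-right workers. The entry lies on scaffold NW_003378162 from 129191 to 133863. Queens and queen-right workers overlapped in Six4. A partner of such factors, eya, showed another order, with 14.4 and 10.2 RPKM in queen-less workers, 14.7 and 12.3 RPKM in queens, and 32.1 and 39.8 RPKM in queen-right workers.

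Nep2 encodes a neprilysin, a zinc metallopeptidase that cleaves small peptides, and was the second most abundant member. It had 21.7 and 17.5 RPKM in queen-less workers, 10.7 and 9.89 RPKM in queens, and 10.4 and 9.65 RPKM in queen-right workers. The other 2 groups were thus nearly the same in Nep2, with means of 10.31 and 10.04 RPKM in queens and queen-right workers. Nep1, Nep3, Nep4 and Nep5, the other neprilysins with an entry, were all highest in queen-right workers, for example Nep3 at 6.98 and 6.08 RPKM in queen-less workers, 4.07 and 2.82 RPKM in queens, and 16.0 and 11.9 RPKM in queen-right workers. Nep2 lies on scaffold NW_003378092 from 246549 to 264339.

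Scp2 encodes a sarcoplasmic calcium-binding protein with EF hands. Its values were 4.78 and 4.05 RPKM in queen-less workers, 2.14 and 1.17 RPKM in queens, and 1.73 and 0.85 RPKM in queen-right workers. The related Scp1 was higher in queen-right workers, with 16.3 and 16.5 RPKM in queen-less workers, 17.1 and 12.8 RPKM in queens, and 31.0 and 34.8 RPKM in queen-right workers. None of the 9 muscle genes, which include myosin, troponins and Mp20, had its highest values in the queen-less pools. Scp2 spans 49647 bp (scaffold NW_003377885, 228738 to 278384), the longest span of the members.

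Acph-1, the gene of the venom acid phosphatase, had the largest ratio to queens. It had 3.74 and 3.56 RPKM in queen-less workers, 0.38 and 0.10 RPKM in queens, and 1.68 and 0.83 RPKM in queen-right workers. Its pattern was not that of the other venom gland genes. Apamin, a venom neurotoxin, had 1.18 and 88.4 RPKM in queen-less workers, 0.61 and 0 RPKM in queens, and 0.60 and 10.7 RPKM in queen-right workers. Mcdp, the mast cell degranulating peptide, had 0.49 and 77.9 RPKM in queen-less workers, 1.01 and 0 RPKM in queens, and 7.47 and 12.8 RPKM in queen-right workers. Pla2, the venom phospholipase, is listed at 0 in the first queen-less pool and had 91.7 RPKM in the second, is listed at 0 in both queen pools, and had 9.61 and 26 RPKM in queen-right workers. While these genes differed widely between the queen-less pools, the queen-less pools of Acph-1 differed by 1.05 times. Melt in the first queen-less pool was below both queen-right pools. Whether tissue of the venom apparatus had a part in the Acph-1 values was not tested. Acph-1 lies on scaffold NW_003378145 from 161020 to 165568 and overlaps LOC726703, which had 65.5 and 52.6 RPKM in queen-less workers, 70.1 and 65.9 RPKM in queens, and 7.02 and 5.91 RPKM in queen-right workers. Whether the counting used strand is not given in the sources used here, so reads of overlapping genes cannot be told apart.

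**Figure D3:**
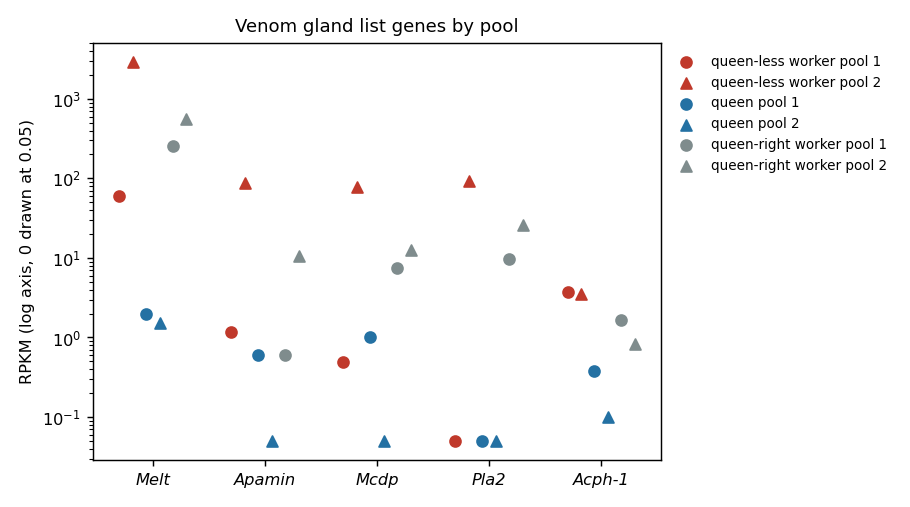
RPKM of the 5 matched venom gland genes in each pool on a log axis, with values of 0 drawn at 0.05, red for queen-less workers, blue for queens and grey for queen-right workers. Melt, Apamin, Mcdp and Pla2 are highest in the second queen-less pool, and Melt has 59.4 RPKM in the first, while both queen-less values of Acph-1 lie together at 3.74 and 3.56 RPKM.

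The choice by single pools left out genes that were high in 1 queen-less pool. On group means instead of pools 58 entries met the limits, the 18 members and 40 others. In 6 of the 40 the second queen-less pool was over 5 times the first, namely Melt, Pla2, Apamin, Mcdp, LOC724436 and LOC100578873, and in 0 the first was over 5 times the second. LOC724436 had 0.63 and 48.1 RPKM in queen-less workers, is listed at 0 in both queen pools, and had 0.97 and 1.90 RPKM in queen-right workers. Whether this pool holds tissue of the venom apparatus was not tested. The rule leaves out genes with such a skew by construction.

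The unnamed members fell into several patterns. LOC412222 had the highest ratio of the smaller queen-less value to the largest other value. Its values were 7.23 and 4.66 RPKM in queen-less workers, 1.22 and 1.33 RPKM in queens, and 1.31 and 1.18 RPKM in queen-right workers. Both other groups were flat, so that the 4 values without a queen-less pool lay within 0.15 RPKM of each other, while the queen-less pools differed by 1.55 times. It is the first of 7 entries on scaffold NW_003378240 (13173 to 23323). LOC100578478 had 3.51 and 3.29 RPKM in queen-less workers, 0.61 and 1.02 RPKM in queens, and 0.60 and 0.79 RPKM in queen-right workers. LOC100576924 had 3.91 and 3.06 RPKM in queen-less workers, 1.24 and 0.59 RPKM in queens, and 0.91 and 0.83 RPKM in queen-right workers. In these genes queens and queen-right workers overlapped, as they did in Scr, Six4 and Nep2.

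LOC100578027 had 9.06 and 9.32 RPKM in queen-less workers, 3.22 and 2.24 RPKM in queens, and 3.67 and 3.13 RPKM in queen-right workers. Its span (scaffold NW_003378149, 70356 to 72682) overlaps LOC726743, so that their reads may be shared. LOC726743 showed the same order of groups, with 18.2 and 11.5 RPKM in queen-less workers, 5.82 and 5.2 RPKM in queens, and 8.72 and 6.94 RPKM in queen-right workers, and stayed below the fold limit. Of the 18 members 5 overlap another entry.

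A second pattern had queens between the worker groups. LOC409409 was the most abundant member, with 26.5 and 25.1 RPKM in queen-less workers, 11.8 and 14.8 RPKM in queens, and 7.49 and 7.55 RPKM in queen-right workers. LOC100578445 had 16.99 and 16.66 RPKM in queen-less workers, 10.2 and 9.39 RPKM in queens, and 6.52 and 5.88 RPKM in queen-right workers. The 3 groups did not overlap in either gene. LOC100577237 had 11.5 and 10.6 RPKM in queen-less workers, 5.15 and 4.87 RPKM in queens, and 3.85 and 2.48 RPKM in queen-right workers. LOC724552 had 4.81 and 5.97 RPKM in queen-less workers, 1.86 and 3.15 RPKM in queens, and 0.58 and 0.86 RPKM in queen-right workers, the largest ratio to queen-right workers of the members (7.49). LOC100578638 had 6.15 and 4.87 RPKM in queen-less workers, 2.80 and 3.22 RPKM in queens, and 1.58 and 1.16 RPKM in queen-right workers. These genes kept the same stepped order from queen-less workers over queens to queen-right workers. The rule itself fixes the place of the queen-less pools in it. Both queen pools lay above both queen-right pools in 32.3% of all tested entries, so this order is not particular to these genes.

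The last members differed most between pools or rested on the shortest models. LOC552408 had 14.1 and 8.35 RPKM in queen-less workers, 5.56 and 4.32 RPKM in queens, and 4.24 and 3.93 RPKM in queen-right workers. Its queen-less pools differed by 1.69 times, and the mean of 11.2 ± 4.07 RPKM (SD, n = 2) had the largest SD of the members, although the ratio between pools was larger in LOC725181. LOC725181 is the sole entry on its scaffold (NW_003381225, 431 to 1084), with 7.86 and 4.61 RPKM in queen-less workers, 1.82 and 0.91 RPKM in queens, and 0.90 and 0.88 RPKM in queen-right workers. LOC726597, with the shortest span of the members (385 bp, scaffold NW_003377876, 380256 to 380640), had 6.68 and 6.41 RPKM in queen-less workers, 2.52 and 2.54 RPKM in queens, and 1.25 and 1.84 RPKM in queen-right workers. LOC100578203, with a span of 689 bp, had 7.86 and 10.1 RPKM in queen-less workers, 4.73 and 4.33 RPKM in queens, and 4.67 and 2.93 RPKM in queen-right workers. Queen and queen-right values overlapped in LOC100578203 but not in LOC726597, where queens were the higher group. In LOC552408 and LOC725181 they did not overlap either, but the nearest queen and queen-right pools were almost equal. These pools had 4.32 and 4.24 RPKM in LOC552408, and 0.91 and 0.90 RPKM in LOC725181.

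Few reads may stand behind many of these values. Whole numbers of reads could be found for 13 of the 18 members, as the smallest numbers that fit all 6 values, so the true numbers may be a multiple. By these smallest numbers, LOC725181 rested on 9 and 5 reads in queen-less workers, 2 and 1 in queens, and 1 and 1 in queen-right workers. The exact 95% Poisson interval of its second queen-less pool, 1.497 to 10.8 RPKM, overlapped that of the first queen pool, 0.22 to 6.57 RPKM. LOC726597 rested on 11 and 10 reads in queen-less workers, 4 and 4 in queens, and 2 and 3 in queen-right workers, and LOC100578478 on 18 and 16, 3 and 5, and 3 and 4 reads in the same order of groups. Scr was better covered, with 60 and 57 reads in queen-less workers, 35 and 21 in queens, and 28 and 26 in queen-right workers, and Acph-1 had 41 and 37, 4 and 1, and 18 and 9 reads. In 2 of the 13 members, LOC100576924 and LOC100578027, the intervals of both queen-less pools lay above those of all 4 other pools. In the other 11 at least 1 pair overlapped, and in 5 of the 13 a queen-less pool had fewer than 20 reads. These intervals cover counting error alone. They use the smallest fitting numbers and would be narrower with a multiple of the reads, so the counts of 11 and 5 are upper limits.

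**Figure D4:**
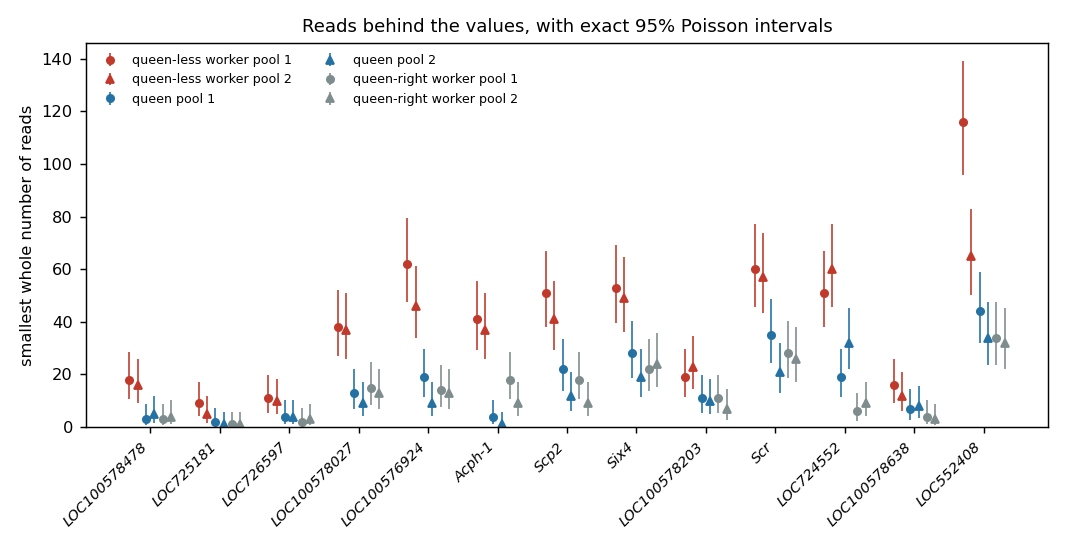
Reads per pool for the 13 members in which a smallest fitting number could be found, with exact 95% Poisson intervals as bars, red for queen-less workers, blue for queens and grey for queen-right workers. LOC552408 has the most reads in a queen-less pool (116) and LOC725181 the fewest (5), and the bars of most members overlap between groups.

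The remaining comparison, queens against queen-right workers, asks how the members stand in the 2 groups that do not have the peak. The rule put an upper limit on the values of both groups. The differences of the members and their count past a threshold are thus a description, without p-values for single members. The model was fitted by limma on log2(RPKM + 1) after the authors' scaling, over the 8778 entries that reached 1 RPKM in 2 or more libraries. In the queen and queen-right pools alone 14 of the 18 members met this filter. The other 4, Acph-1, LOC100578478, LOC100576924 and LOC725181, passed through their queen-less values. Over all tested entries, by limma with Benjamini-Hochberg adjustment at 0.05, 31.3% were higher in queens, 40.6% were lower, and 71.8% differed. Of the members 6 (33.3%) were past that threshold as higher in queens and 0 as lower, a count that describes values capped by the choice and from which nothing is read. Without a fit, both queen pools lay above both queen-right pools in 8 of 18 members (32.3% of tested entries) and below them in 1 (54.6%). Among the 8 are LOC725181 and LOC552408, where the nearest pools were almost equal. The median difference of the members was 0.42 on the log2 scale, against −0.19 over all tested entries. The entries that met the rule against queen-right workers alone are a closer background, and of these 98.5% were higher in queens. The members differ from these 1448 entries by the limit set on queens, which the rule fixes.

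The largest difference was that of LOC724552, with a mean of 2.51 ± 0.912 RPKM in queens and 0.72 ± 0.198 RPKM in queen-right workers (SD, n = 2 each), or 1.21 on the log2(RPKM + 1) scale (standard error 0.26). LOC100578638 followed with a difference of 0.96 (standard error 0.23), LOC409409 with 0.94 (standard error 0.16) and LOC100578445 with 0.78 (standard error 0.16) on that scale. LOC100577237 had a difference of 0.75 (standard error 0.23) and LOC726597 one of 0.68 (standard error 0.21). In each of these 6 genes both queen pools lay above both queen-right pools.

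Acph-1 had a difference of −0.65 (standard error 0.27), with both queen pools below both queen-right pools. Single pools decided its size, which was −0.34 without queen-right pool 1, −0.96 without queen-right pool 2, −0.81 without queen pool 1 and −0.48 without queen pool 2. The remaining members had differences between −0.05 for LOC100578027 and 0.50 for LOC725181. LOC100578203, at 0.43, was likewise unsteady, with 0.73 without queen-right pool 1 and 0.13 without queen-right pool 2. Scr (0.24, standard error 0.24), Six4 (0.23, standard error 0.22) and Nep2 (0.24, standard error 0.17) had differences near their standard errors. Without the authors' scaling these were 0.04 for Scr, 0.033 for Six4 and 0.035 for Nep2, and the differences of the other members were lower as well.

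**Figure D5:**
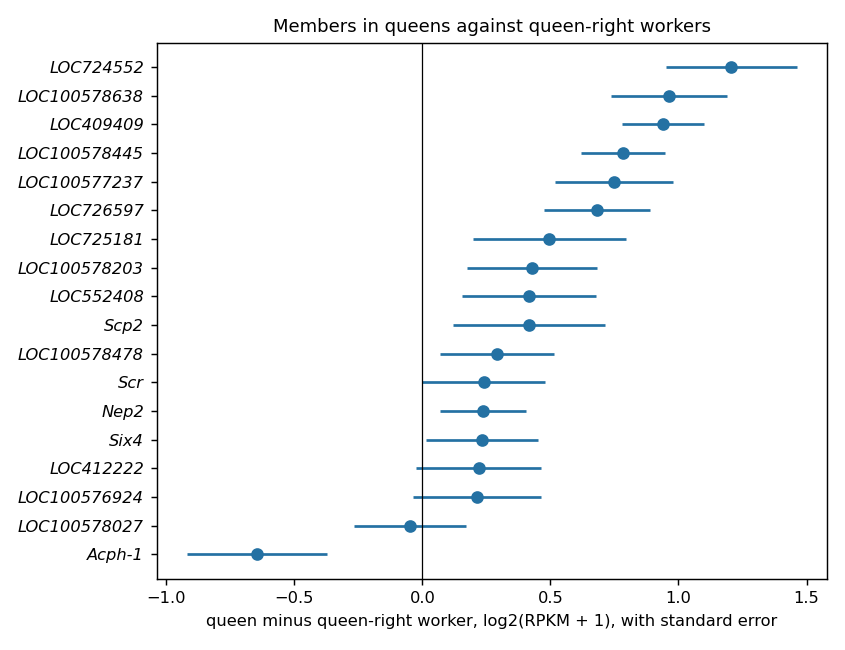
Difference between queens and queen-right workers for each member on the log2(RPKM + 1) scale after the authors' scaling, queen minus queen-right, with the standard error from limma as bars. The upper 6 points are unnamed genes from 0.68 to 1.21, and Acph-1 at −0.65 is the lowest.

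Members were not next to each other on a scaffold. They are spread over 17 scaffolds, and the pair that share one, LOC100578203 and LOC100577237 on NW_003378096, are not neighbours. Separate scaffolds can belong to the same chromosome. The 13 members listed in the reference table lie on 9 linkage groups (chromosomes), and how far apart they lie there was not examined. Of the 33 entries that flank a member on its scaffold, 0 were members. In 3 of the 33 both queen-less pools lay above the other 4 (LOC726743, LOC409961 and Ac3), against 5.29% of all entries. LOC726743 and Ac3 overlap the member they flank, so reads may be shared, and Ac3 had only 0.40 and 0.36 RPKM in queen-less workers. LOC409961, which starts 252 bp after LOC100576924, had 145 and 132 RPKM in queen-less workers, 124 and 113 RPKM in queens, and 96.8 and 112 RPKM in queen-right workers. The median span of the members was 5386 bp, against 3548 bp over all entries, and ranged from 385 to 49647 bp.

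Gene lists for other cell types and for hormone response were set beside the members. Over 7 lists with 63 matched genes (of 98 symbols searched), 0 lists had their summed RPKM highest in both queen-less pools. Of the 63 genes 2 had, vas and Acph-1 (3.17%, against 5.29% of all entries), and Acph-1 alone was a member. In the nerve list the 5 genes summed to 41.8 and 29.5 RPKM in queen-less workers, 19.1 and 25.9 RPKM in queens, and 68.2 and 64.9 RPKM in queen-right workers. Haemocyte and immune genes (17 matched) summed to 213 and 252 RPKM in queen-less workers, 113 and 119 RPKM in queens, and 826 and 896 RPKM in queen-right workers. Fat body genes (6 matched) summed to 39.3 and 49.8 RPKM in queen-less workers, 35.6 and 12.9 RPKM in queens, and 1579 and 1238 RPKM in queen-right workers. These 3 lists were highest in queen-right workers. The members are highest in queen-less workers by the choice, so the difference in order says nothing about these tissues. The 8 germline genes summed to 2437 and 2821 RPKM in queen-less workers, 3231 and 3123 RPKM in queens, and 1175 and 1256 RPKM in queen-right workers. The 13 genes of ecdysone and juvenile hormone response summed to 219 and 205 RPKM in queen-less workers, 190 and 189 RPKM in queens, and 228 and 172 RPKM in queen-right workers. The germline sum was carried by mael, a gene of the piRNA pathway, with 1467 and 1950 RPKM in queen-less workers, 2309 and 2274 RPKM in queens, and 97.5 and 56.5 RPKM in queen-right workers. The other 7 germline genes summed to 970 and 871 RPKM in queen-less workers and 922 and 849 RPKM in queens. Their sums were highest in queen-right workers, at 1078 and 1200 RPKM, of which orb alone gave 963 and 1058 RPKM. The queen-right pools were the lowest in vas, Ago3 and BicD, and overlapped the queens in nanos, spn-E and egl. The hormone sums of the queen-right pools spanned those of both other groups, while the queen-less sums lay above those of queens. The part of these tissues in the level of the members was not tested.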

How the data were processed

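RNA was measured in 6 ovary libraries, and groups follow the sample labels. The authors deposited RPKM per gene entry and a normalized signal, which equals RPKM + 1 multiplied by 1 factor per library (0.856 to 1.01), each factor being the ratio between the columns. The aligner, counting program and assembly version are not given in the sources used here. The authors' adjusted p-values for 3 comparisons and their group means were not used, nor were 12 further columns of per-sample values. Members were found on unscaled RPKM, thus without the lower factors of the queen-right libraries (0.898 and 0.856). Members and lists were chosen with earlier results of these data known. The genes named are the 12 with the highest ratio, the 8 most abundant, those 3 on each side of a limit, named and listed members, and up to 5 in each direction between queens and queen-right workers, which covers all members. Hox, sine oculis, neprilysin and sarcoplasmic calcium-binding relatives, the entries from the rule on group means and the genes of the other observations were picked after values were seen. limma 3.58.1 (R 4.3.3) was run on log2(RPKM + 1) with the factors, a variance trend, 1 mean per group and all 6 libraries. Read steps used values below 6 RPKM (Python 3.11.15, numpy 2.4.6, scipy 1.17.1), allowing 0.1% for the read total. Both methods were run on simulated data. The simulation of read steps included gene models without introns, so it does not test that assumption. The search for the reads of members was not simulated. Same-numbered pools are not paired by the labels. Sequences of the members were not used here.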

Additional observations from a re-analysis of the deposited data

How the results depend on the processing

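The number of members follows its limits. It was 73 at a fold limit of 1.2, 8 at 2, 26 at a minimum of 1 RPKM, 4 at 10 RPKM and 22 with the authors' factors, where all 18 members were kept and LOC100577990, LOC100578055, Myo20 and inaE were added. On group means, an alternative added after seeing the data, it was 58. Leaving out 1 pool loosens the rule by construction and gave 23 to 53 entries, with 42 without queen-less pool 1, 53 without queen-less pool 2 and 33 without queen pool 1, and all 18 members kept each time. Between queens and queen-right workers 6304 entries passed, 3871 when a log2 fold change of at least 1 was required, and 5443 to 6217 with 1 pool left out. Members higher in queens numbered 6, 1 with that requirement and 4 with unscaled RPKM. The count of members lower in queens was 0 and became 1, Acph-1, with the pseudocount of 0.1 and with unscaled RPKM. These member counts describe values capped by the choice, and nothing is read from them. Without queen-right pool 1 the difference was 0.73 for LOC100578203 and 0.55 for LOC726597. Unscaled RPKM moved the median of all entries to −0.39 from −0.19 and gave 2303 higher and 4158 lower, against 2744 and 3560. Deviations of same-numbered pools correlated at 0.0614 for queen-less workers with queens. They correlated at −0.129 for queen-less with queen-right workers, and −0.0862 for queens with queen-right workers. These small values show no strong shared shift, but cannot tell whether same-numbered pools share a colony or batch. With the replicate block 6173 entries, 6 members higher and 0 lower passed. Read numbers of 5 members could not be found.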

Other observations

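A wider set of 55 entries reached 1.2 but not 1.5 times the largest other value, and 10 of these carry a gene name. The 5 described here were picked after their values were seen, so no test is given. In Drosophila neur is an E3 ubiquitin ligase that acts on Notch ligands, and its entry had 44.6 and 43.6 RPKM in queen-less workers, 30.0 and 30.7 RPKM in queens, and 20.2 and 15.1 RPKM in queen-right workers. Ser, a Notch ligand, had 15.6 and 15.6 RPKM in queen-less workers, 12.6 and 12.9 RPKM in queens, and 7.59 and 6.72 RPKM in queen-right workers. In both genes the 3 groups did not overlap and the pools of a group lay close together. The queen-less place at the top follows from the choice, and both queen pools lay above both queen-right pools in 32.3% of tested entries. The guidance ligand sli had 26.2 and 26.6 RPKM in queen-less workers, 19.3 and 20.1 RPKM in queens, and 15.9 and 12.0 RPKM in queen-right workers. The semaphorin receptor plexA had 29.6 and 26.99 RPKM in queen-less workers, 22.4 and 22.2 RPKM in queens, and 19.1 and 17.04 RPKM in queen-right workers. Wnt5 had 13.2 and 14.3 RPKM in queen-less workers, 10.8 and 10.8 RPKM in queens, and 8.22 and 8.25 RPKM in queen-right workers. These genes are more abundant than most members. The others were inaE, Myo20, hig, Trf2 and Stg-1.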
